A study of Homo sapiens with 6 samples.

Results

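The forkhead genes encode a family of transcription factors that share a winged-helix DNA-binding domain, the forkhead box, and are named by a subfamily letter and a member number. They were examined here in the H3K27ac chromatin immunoprecipitation sequencing (ChIP-seq) peaks of SU-CCS-1 cells. Members were the protein-coding genes of GENCODE version 44 whose symbol is FOX followed by a letter from A to S and digits. This rule matched 52 of 20015 protein-coding genes. The match FOXL2NB is named for its place beside FOXL2, has no forkhead box and was kept apart, which left 51 forkhead genes in 19 subfamilies. FOXL2NB had no promoter peak, and its only other peak was the 1180-base peak counted for FOXL2.

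SU-CCS-1 is a human line established from clear cell sarcoma (CCS). Its genotype is given as EWSR1::ATF1, a fusion of an RNA-binding protein and a cAMP-responsive transcription factor. The series held 3 H3K27ac ChIP replicates and 3 inputs of sonicated chromatin, all from this 1 line with its fusion and with no treatment or second genotype named. The deposited data were 1 merged list of 30784 peaks without scores or values per replicate, so the depth behind a peak is unknown, no spread between replicates can be given and no test between conditions was possible. Intervals below are 95% Wilson intervals, which cover counting of genes only and treat related genes as independent. A gene without a peak in the list may have been acetylated below the calling cutoff. As a check of the labelled cell type, peaks lay within 3 kb of a start at 7 of 8 melanocytic genes that CCS is known to express (TYR had none) and at 0 of 4 skeletal muscle, 0 of 3 T-cell and 1 of 3 epithelial markers (KRT8).

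H3K27ac, an acetylated lysine of histone H3, is a mark of active promoters and enhancers, and broad domains of it are common at genes that set cell identity. Many forkhead factors bind DNA as monomers at short AT-rich sites, and the FOXA proteins are the textbook pioneer factors, which open compacted chromatin. Other members act in single tissues: FOXD3 keeps neural crest cells undifferentiated and restrains the melanocyte lineage, FOXN1 builds the thymus, FOXP3 specifies regulatory T cells and FOXL2 maintains the ovary. A further set is active in most cells, including FOXO factors, which insulin signalling through AKT keeps out of the nucleus, FOXM1, which drives mitotic genes, and FOXK factors, which regulate metabolism and autophagy.

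The start sites of these genes are mostly GC-rich, with few exceptions, and 7 upstream stretches are shown because they span the range from CpG-dense to CpG-free and come from genes with and without a peak. Each is the 150 bases before the canonical start in the RefSeq promoter table (GRCh38.p14), 5′ to 3′ on the gene's strand, with CG dinucleotides in capitals. FOXQ1 (chr6:1311948-1312097, plus strand), FOXC1 (chr6:1609765-1609914, plus strand) and FOXI3 (chr2:88452694-88452843, minus strand) had a peak over the start. FOXD3 (chr1:63322417-63322566, plus strand), FOXE1 (chr9:97853076-97853225, plus strand) and FOXR2 (chrX:55623250-55623399, plus strand) had no promoter peak. FOXP2 (chr7:114414665-114414814, plus strand) had peaks only at other start sites.
FOXQ1: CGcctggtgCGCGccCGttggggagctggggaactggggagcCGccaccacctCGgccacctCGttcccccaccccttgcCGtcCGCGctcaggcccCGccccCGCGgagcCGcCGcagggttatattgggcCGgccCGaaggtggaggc
FOXC1: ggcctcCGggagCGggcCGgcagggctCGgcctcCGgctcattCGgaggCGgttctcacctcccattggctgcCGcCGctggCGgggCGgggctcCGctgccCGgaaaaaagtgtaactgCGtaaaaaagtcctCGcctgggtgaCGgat
FOXI3: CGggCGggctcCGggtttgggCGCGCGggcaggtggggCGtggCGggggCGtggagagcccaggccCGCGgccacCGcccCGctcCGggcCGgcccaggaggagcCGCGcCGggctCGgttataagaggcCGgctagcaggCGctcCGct
FOXD3: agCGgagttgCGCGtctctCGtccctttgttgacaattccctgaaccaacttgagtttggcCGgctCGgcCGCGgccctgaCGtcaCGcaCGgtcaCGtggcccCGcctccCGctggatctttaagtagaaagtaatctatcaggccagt
FOXE1: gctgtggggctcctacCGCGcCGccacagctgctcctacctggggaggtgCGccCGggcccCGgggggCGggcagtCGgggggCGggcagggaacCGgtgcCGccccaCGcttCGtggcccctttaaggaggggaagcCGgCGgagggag
FOXR2: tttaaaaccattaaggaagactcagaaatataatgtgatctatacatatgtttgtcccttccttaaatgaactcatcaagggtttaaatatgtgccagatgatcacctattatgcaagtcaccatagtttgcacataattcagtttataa
FOXP2: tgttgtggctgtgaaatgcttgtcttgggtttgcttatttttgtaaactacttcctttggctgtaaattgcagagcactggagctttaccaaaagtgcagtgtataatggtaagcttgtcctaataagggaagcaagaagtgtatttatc
These stretches held 17 CG pairs at FOXQ1 (76.0% GC), 16 at FOXC1 (68.7%) and 22 at FOXI3 (80.7%). FOXE1, which lacked a peak, lay within their range of GC at 77.3%, with 15 CG pairs, and FOXD3, also without one, lay below it at 58.7%, with 14. The FOXR2 and FOXP2 stretches held 0 CG pairs, at 31.3% and 38.7% GC. In all, 40 of the 51 genes were in that promoter table. Among the genes not in it were FOXA2, FOXC2, FOXE3, FOXF1, FOXH1, FOXJ1, FOXL1, FOXM1, FOXN2 and FOXS1.

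Promoter peaks, defined as peaks with any base within 3 kb of a start site of any annotated transcript, were found at 24 of the 51 forkhead genes (47.1%, interval 34.1 to 60.5), against 63.4% of all protein-coding genes. A start site lay inside a peak at 21 of them (41.2%, 28.8 to 54.8), against 58.2% of all genes. Another peak within 50 kb, not counted as a promoter peak of the gene, was found at 31 (60.8%, 47.1 to 73.0), against 66.8%. All shares were below the background, and for the first 2 the interval ended below it, whereas the interval for other peaks contained it. FOXD4 and its copies, 6 related genes described below, all lacked a peak, and without them the promoter share was 24 of 45 (53.3%, 39.1 to 67.1), an interval that contained the background. With only the widest 50% of peaks the share was 20 of 51 (39.2%), against 49.0% of all genes, which its interval, with an upper bound of 52.9%, also contained. Forkhead genes had a median of 2 annotated start sites, against 5 over all genes, and fewer starts give fewer windows. With the canonical start only, the share was 23 of 51 (45.1%, 32.3 to 58.6), against 59.9%, and the interval ended below that background.

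The 51 genes fell into 4 classes, whose shares over all genes were not counted. Both a promoter peak and another peak were present at 19, a promoter peak alone at 5 (FOXD2, FOXJ3, FOXO1, FOXP2 and FOXQ1), other peaks alone at 12 and neither at 15. The peak of FOXA3, FOXH1 and FOXO6 lay beside the gene's start sites without covering any of them. The FOXA3 peak, 659 bases from the nearest FOXA3 start, covered the start of SYMPK, and the FOXH1 peak, 1342 bases away, covered the start of PPP1R16A. These peaks cannot be assigned to the forkhead gene rather than to its neighbour. The 570-base FOXO6 peak, 252 bases from the nearest FOXO6 start, held no annotated start. Promoter peaks that also covered the start of another gene occurred at 12 forkhead genes, and the share over all genes was not counted. Among these neighbours were the transcripts FOXN3-AS1, FOXP1-DT and FOXP4-AS1.

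**Figure D1:**
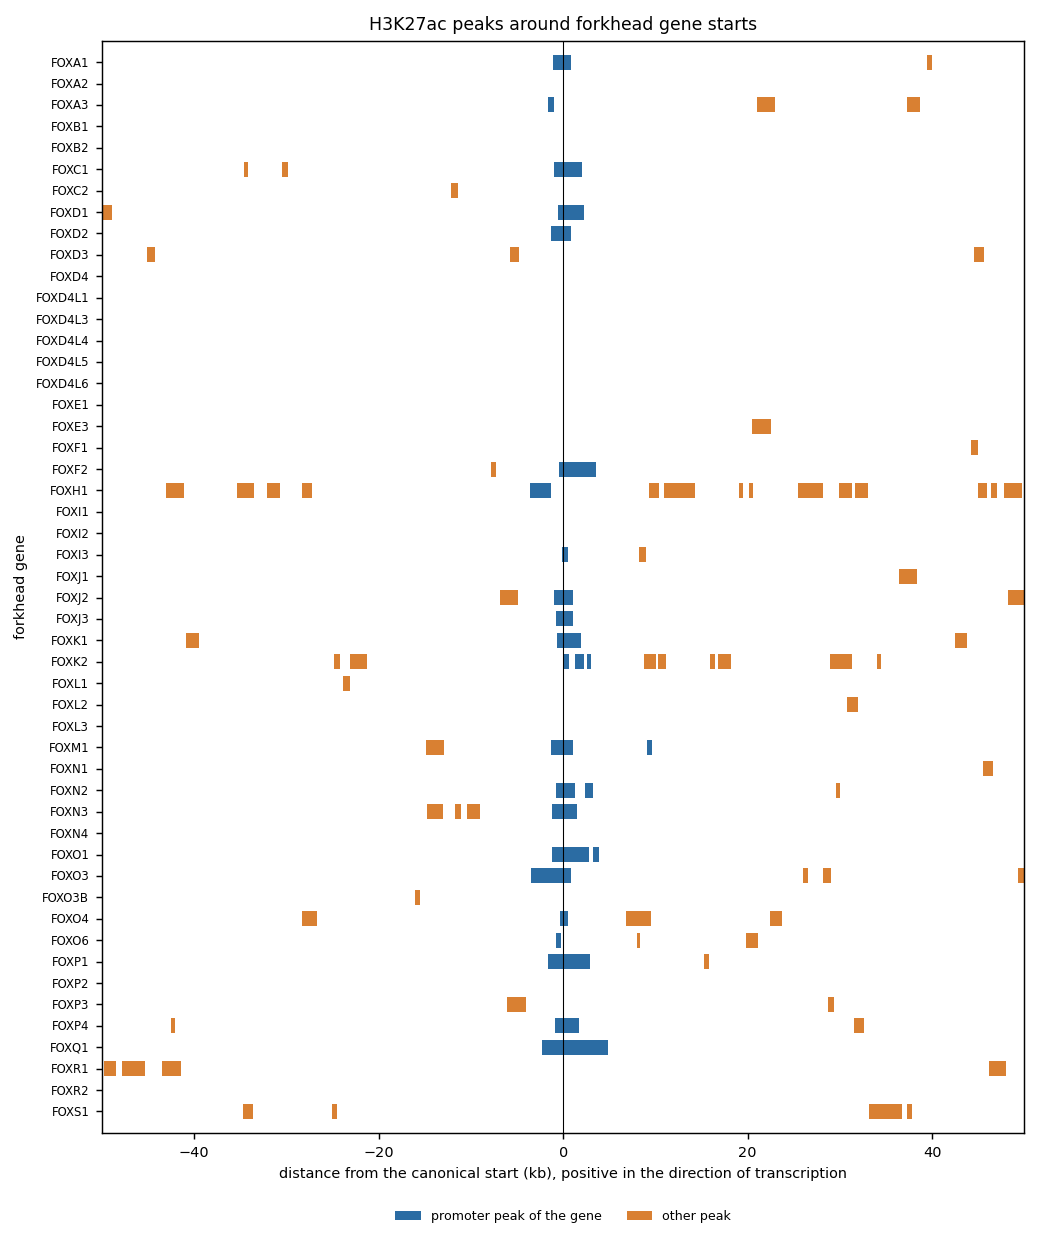
Peaks within 50 kb of the canonical start of 50 of the 51 forkhead genes, 1 gene per row, with the distance in kb on the x axis positive in the direction of transcription. Blue bars are promoter peaks of the gene and orange bars other peaks; the rows of FOXD4 and its copies hold no bar, and the FOXP2 row holds none because its peaks lie 215 and 328 kb from the canonical start.

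The subfamilies differed. FOXK was the only subfamily of at least 2 members in which every member had a promoter peak (2 of 2), and the single members of FOXH, FOXM and FOXQ had one too. FOXO (4 of 5), FOXP (3 of 4), FOXA (2 of 3) and FOXJ (2 of 3) had a peak at most members. When only peaks over a start site of the gene were counted, FOXA fell to 1 of 3, FOXH to 0 of 1 and FOXO to 3 of 5. The other subfamilies kept their counts. FOXC, FOXF and FOXN had one at 1 of 2, 1 of 2 and 2 of 4, FOXI at 1 of 3 and FOXD at 2 of 9. No member of FOXB (2 genes), FOXE (2), FOXL (3), FOXR (2) or FOXS (1) had a promoter peak. Of the 14 subfamilies with at least 2 members, 9 were thus mixed, and close relatives such as FOXC1 and FOXC2 fell on opposite sides.

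Several of the subfamilies with peaks at most members are known for broad expression. FOXK1 and FOXK2, forkhead factors with a phosphopeptide-binding FHA domain, had promoter peaks summing to 2640 and 5000 bases. FOXK2 had 6 promoter peaks and 11 other peaks, 9 of which lay beyond 3 kb of any annotated start. Its canonical start lay 49 bases outside the nearest of them, and a peak of 1690 bases lay 72.9 kb away over an internal start. FOXK1 had 6 other peaks, of which 1 lay beyond 3 kb of all starts.

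In the FOXO subfamily, the targets of AKT that restrain growth and induce stress resistance, summed promoter widths were 4720 bases at FOXO1, 4270 at FOXO3, 880 at FOXO4 and 570 at FOXO6. FOXO1 and FOXO3 were wider than 89.5% and 87.5% of protein-coding genes with a promoter peak, and FOXO4 and FOXO6 wider than only 12.9% and 4.34%. The members with peaks therefore split into a broad and a narrow pair. FOXO3 also had 5 peaks inside its gene body beyond 3 kb of all starts, the largest 2690 bases, 71.1 kb from the canonical start. FOXO1 had no other peak within 50 kb of a start, but 3 peaks further inside its gene body in addition to its 2 promoter peaks. Of the 4 other peaks near FOXO4, 3 covered starts of its neighbours SNX12, CXorf65 and MED12. FOXO3B, a copy of FOXO3, had no promoter peak. It matched the FOXO3 coding sequence at 98.9% of 615 aligned bases, a value that covers coding bases and not the promoter. Whether reads were placed uniquely at its start was not tested, so its call is uncertain.

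FOXP1 was the widest of the family. Its 6 promoter peaks summed to 17130 bases, more than at 99.5% of genes with a promoter peak. The peak over the canonical start (chr3:71580811-71585420) measured 4610 bases, and the widest, 5840 bases (chr3:71126101-71131940), lay over an internal start 452 kb downstream. FOXP1 has 67 annotated start sites over 629.29 kb, and a gene with more starts has more windows in which a peak is counted. FOXP4 had 1 promoter peak of 2560 bases. FOXP2, known for its role in speech, had peaks of 2370 and 810 bases over alternative starts 328 and 215 kb from the canonical start, which itself lay in AT-rich sequence without a peak. FOXP3 had no promoter peak, and its nearest peak, 2120 bases wide and 3.89 kb from the nearest FOXP3 start, covered the start of PPP1R3F.

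FOXM1, the driver of mitotic gene expression, had a 2450-base peak over its start, which it shared with the starts of RHNO1 and TULP3, and a 550-base peak at an internal start. FOXN2 and its relative FOXN3, a repressor first described as a checkpoint suppressor, had promoter widths of 2880 and 3710 bases. FOXN3 had 6 other peaks, all beyond 3 kb of every start and all within its 494.28 kb gene, the widest 3920 bases. The tissue-restricted members of that subfamily, FOXN1 of thymic epithelium and FOXN4 of retina and spinal cord, had no promoter peak. Within FOXJ, the broadly expressed FOXJ2 and FOXJ3 had peaks of 2090 and 1810 bases, while FOXJ1, the regulator of motile cilia, had its nearest peak 36.4 kb away at the start of EXOC7.

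**Figure D2:**
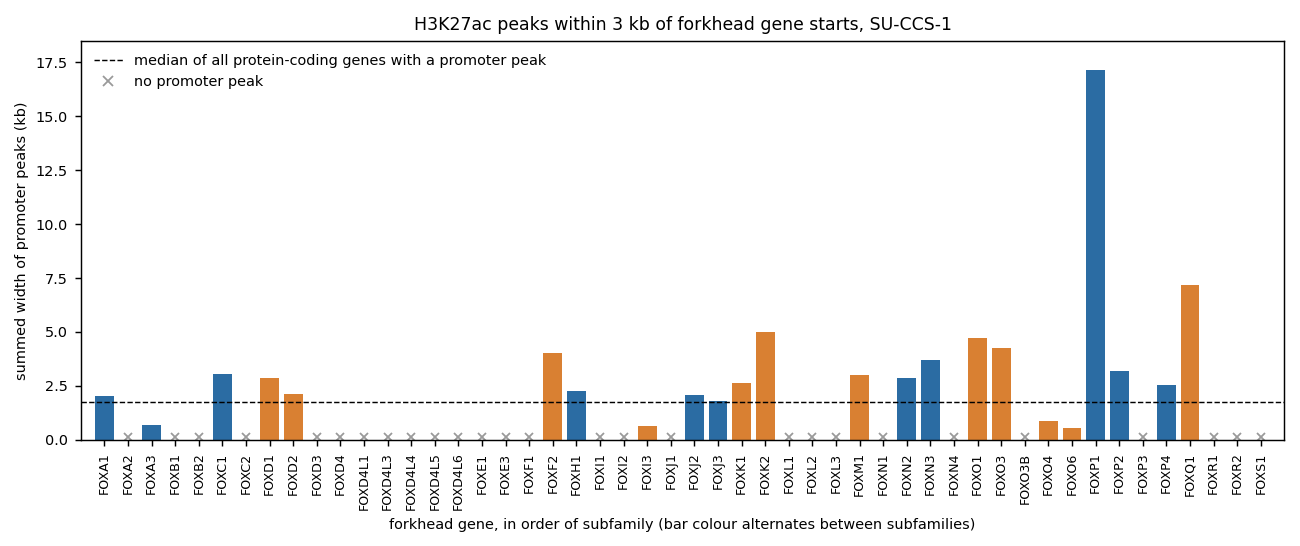
Summed width in kb of all promoter peaks of 50 of the 51 forkhead genes, ordered by subfamily on the x axis, with crosses for the 27 genes without one and a dashed line at the median (1760 bases) of all protein-coding genes with a promoter peak. FOXP1 reaches 17.13 kb and FOXQ1 7.17 kb, and FOXA3, FOXI3, FOXO4 and FOXO6 lie below the line.

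Among the developmental members, FOXQ1, a factor of epithelial and hair differentiation, had the widest single peak. It ran from 2267 bases before the canonical start to 4902 bases after it and covered the whole gene. At 7170 bases it exceeded the summed width at 95.5% of genes with a promoter peak. FOXF2 and FOXC1, which act in mesenchyme and in the eye, skull and neural crest, had single peaks of 4040 and 3070 bases. The peaks covered 58.8% and 52.4% of these short genes and reached further downstream than upstream of the start (3544 against 495 bases at FOXF2 and 2085 against 984 at FOXC1). FOXD1, of kidney stroma and retina, and FOXD2 had peaks of 2880 and 2110 bases. FOXA1 had a 2010-base peak shared with the start of TTC6, and FOXI3, of ectodermal placodes, a 630-base peak at a start of 71.1% GC.

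Over the 24 genes with a promoter peak, the median summed width was 2765 bases (quartiles 2070 and 3792.5), against 1760 (1190 and 2835) over all such genes. For the 19 whose canonical start lay inside a peak, the width of that peak had a median of 2640 bases (2075 to 3545), against 1600 (1150 to 2170) over 10717 genes. The median widths at forkhead genes were thus above those of all genes. Forkhead genes with a promoter peak had a median of 3 annotated start sites, against 7 over all such genes. The peak extended further downstream than upstream at 13 of the 19 (68.4%), close to the 65.3% of all genes.

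The array on chromosome 6 had peaks at every member and the related array on chromosome 16 at none. FOXQ1, FOXF2 and FOXC1 lie within 298 kb on chromosome 6, and FOXF1, FOXC2 and FOXL1 within 68.0 kb on chromosome 16. FOXF1 and FOXC2 are paralogues of FOXF2 and FOXC1, whereas FOXQ1 and FOXL1 belong to different subfamilies. With 50 kb added at each end, the chromosome 6 array held 9 peaks that covered 20.0 kb, or 5.03% of the window and 2.26 peaks per 100 kb. Of these peaks, 6 covered no annotated start, the widest of them 2960 bases (chr6:1495791-1498750), between FOXF2 and FOXC1. The chromosome 16 array held 1 peak of 790 bases (0.47% of its window, 0.595 per 100 kb), which covered the start of MTHFSD and lay 11.3 kb from FOXC2, 23.1 kb from FOXL1 and 44.2 kb from FOXF1. In 1 kb around the start, GC content was 69.4% at FOXQ1, 76.2% at FOXF2 and 75.4% at FOXC1, and 71.4% at FOXF1, 60.7% at FOXC2 and 56.3% at FOXL1. The CpG observed/expected ratio was 0.81, 0.873 and 0.949 in the first array and 0.917, 0.981 and 0.721 in the second. GC content was thus lower at FOXC2 and FOXL1 than at any gene of the first array, and its part in the difference was not tested. Coding sequences in these paralogue pairs were 65.4% (FOXC1 and FOXC2) and 61.6% (FOXF1 and FOXF2) identical, below the values of the FOXD4 copies. A further pair, FOXE3 and FOXD2 on chromosome 1, held 1 peak, which covered the FOXD2 start and lay 20.5 kb from FOXE3, a lens gene.

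**Figure D3:**
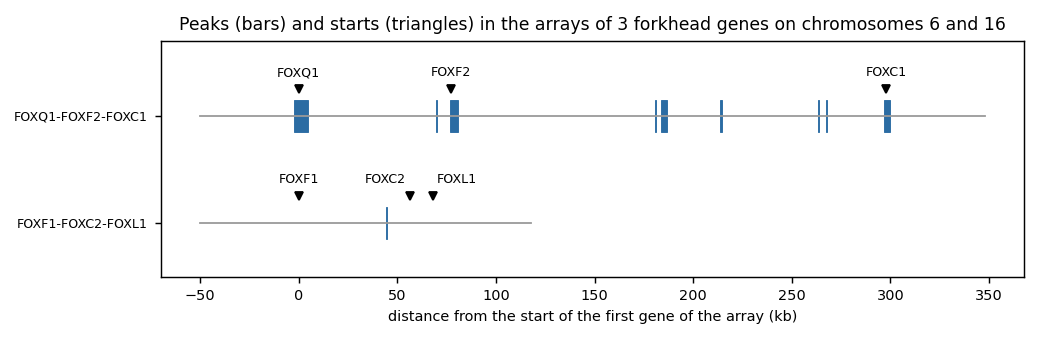
Peaks (bars, to scale) and canonical starts (triangles) in the 2 arrays of 3 forkhead genes, with distance in kb from the start of the first gene on the x axis and grey lines for the window of 50 kb beyond the outer genes. The chromosome 6 array holds 9 peaks, including 1 over each start, and the chromosome 16 array 1 peak, over none of its forkhead starts.

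FOXD3, the neural crest factor, had no promoter peak, and no set of neural crest genes was examined beside it. Of its 3 other peaks, a 930-base peak lay 4.80 kb from the start, over the start of LINC00466, an 890-base peak lay 44.3 kb away, and a 1080-base peak 44.6 kb away covered the start of ALG6. A 5 kb window would have counted the nearest of these. FOXS1, a marker of sensory neurons derived from the neural crest, had no promoter peak and 4 other peaks, the nearest 24.5 kb away at the start of DUSP15.

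FOXD4 and its copies FOXD4L1, FOXD4L3, FOXD4L4, FOXD4L5 and FOXD4L6 had neither a promoter peak nor another peak within 50 kb. Their coding sequences were 86.9 to 99.8% identical over the 15 pairs (median 91.9%) and 98.6 to 99.8% over the 6 pairs among FOXD4L3, FOXD4L4, FOXD4L5 and FOXD4L6. Their promoter stretches in the RefSeq table were 41.6 to 97.3% identical, and only FOXD4 with FOXD4L6 (97.3%) exceeded the highest value, 56.6%, among 561 pairs of other forkhead genes. These stretches are placed by annotated starts, which need not correspond between copies. FOXD4L4 is annotated over 1251 bases and FOXD4L5 over 3109, although each has 1248 coding bases. The low values therefore do not show that the promoters of the copies differ. Whether reads were placed uniquely at these genes was not tested. The nearest peak of 4 of them lay 59.8 to 60.4 kb away and covered the start of a ZNG1 gene, itself a multicopy family. For FOXD4 the nearest peak lay 88.7 kb away, at WASHC1, and for FOXD4L5 197 kb away.

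Other members with neither kind of peak were FOXA2, FOXB1, FOXB2, FOXE1, FOXI1, FOXI2, FOXL3, FOXN4 and FOXR2. FOXA2, the endoderm pioneer factor, was the most isolated, with its nearest peak 764 kb away at NXT1. FOXI2 followed at 315 kb, FOXI1 at 185 kb, FOXL3 at 140 kb and FOXN4 at 132 kb. FOXB1 and FOXB2, of the neural tube, had their nearest peak 91.3 and 92.2 kb away, FOXR2 94.3 kb away at RRAGB, and FOXE1, the thyroid factor, 56.2 kb away. Over the 27 genes without a promoter peak the median distance was 59.8 kb (range 3.89 to 764), against 52.4 kb over 7324 such genes.

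Forkhead genes with a CpG-rich start carried a promoter peak less often than the background of such genes, and among those without were FOXA2, FOXC2, FOXD3, FOXF1 and FOXL2. A start was called CpG-rich when 1 kb around the canonical start had at least 50% GC and a CpG observed/expected ratio of at least 0.6. The promoter peak could lie at any start of the gene. Of 41 forkhead genes with a CpG-rich start, 22 carried a promoter peak (53.7%, interval 38.7 to 67.9), against 82.8% of all CpG-rich genes, and the interval ended below that background. Leaving out the FOXD4 copies gave 22 of 38 (57.9%, 42.2 to 72.1), which also ended below it. Of the 10 genes whose canonical start was not CpG-rich, 2 had a promoter peak (20.0%, 5.67 to 51.0), against 27.6%. These were FOXH1 and FOXP2, and neither had a peak over that start. The nearest peak lay 1.34 kb from it at FOXH1 and 215 kb from it at FOXP2. Genes without a promoter peak had a median GC content of 61.8% and a CpG ratio of 0.721, against 54.7% and 0.351 for all genes without a peak. Of the 19 CpG-rich forkhead genes without a promoter peak, 10 also had no other peak within 50 kb, a share that was not counted over all genes.

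**Figure D4:**
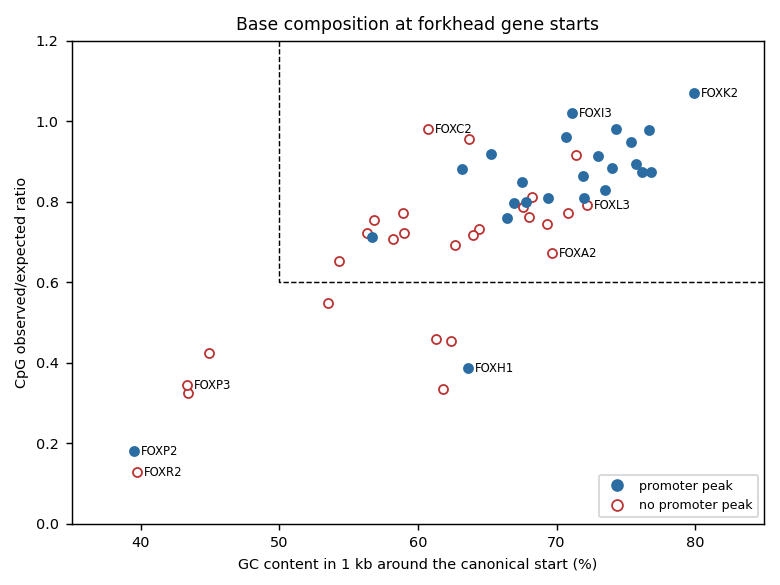
GC content in percent (x axis) and CpG observed/expected ratio (y axis) in 1 kb around the canonical start of the 51 forkhead genes, filled where a promoter peak was found and open where none was. Dashed lines mark 50% and 0.6, and 19 open circles lie inside the CpG-rich corner with the 22 filled ones. FOXH1 and FOXP2 are the filled points outside it, and their promoter peaks do not cover the canonical start.

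Forkhead genes with several coding exons carried promoter peaks more often than those with 1, as protein-coding genes did in general. Of 21 forkhead genes with their coding sequence in 1 exon, 5 had a promoter peak (23.8%, 10.6 to 45.1; among them FOXC1, FOXD1, FOXD2 and FOXQ1), against 34.6% of all such genes. Of 30 with more than 1 coding exon, 19 had one (63.3%, 45.5 to 78.1), against 67% of all such genes. Both intervals contained their background, and without the FOXD4 copies the share for 1 coding exon was 5 of 15 (33.3%, 15.2 to 58.3). Among CpG-rich starts the shares were 5 of 16 (31.2%, 14.2 to 55.6) for 1 coding exon, against 69.3%, and 17 of 25 (68.0%, 48.4 to 82.8) for more than 1, against 83.8%. Without the FOXD4 copies the first of these became 5 of 13 (38.5%, 17.7 to 64.5), still below its background. The single-exon members are largely the developmental subfamilies B, C, D, E and L, so structure and subfamily cannot be told apart.

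**Figure D5:**
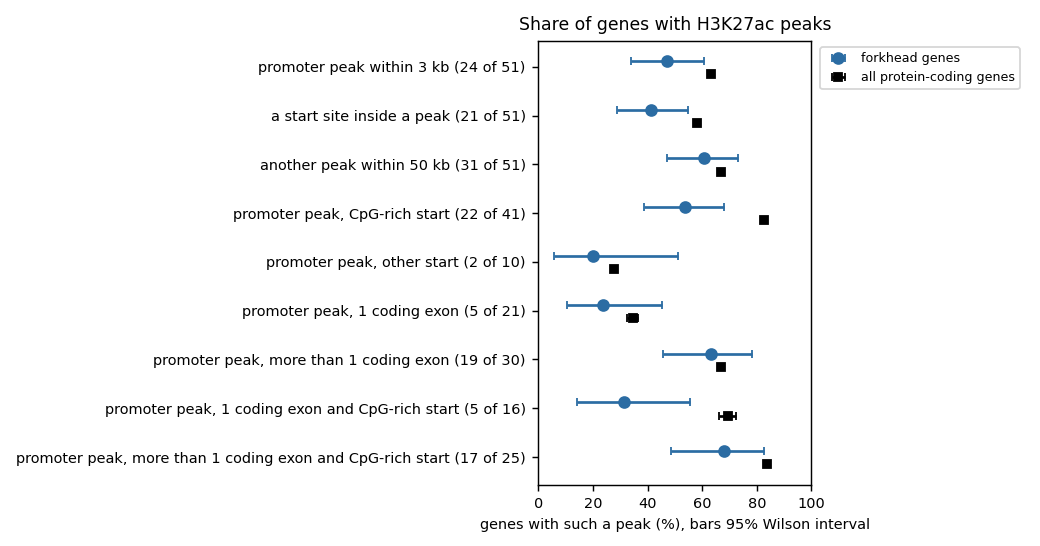
Percent of forkhead genes (blue circles, with the count in each label) and of all protein-coding genes (black squares) with each kind of peak, with 95% Wilson intervals as bars. The forkhead interval ends below the background for CpG-rich starts (53.7% against 82.8%) and contains it for genes with more than 1 coding exon (63.3% against 67%).

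For peaks further from the starts, the forkhead genes lay near the background. The median number of other peaks within 50 kb was 1 per forkhead gene (quartiles 0 and 2), as against 1 (0 and 4) over all genes. The 89 distinct peaks of this kind that were no forkhead promoter peak comprised 52 near starts of other genes and 37 beyond 3 kb of every start. Of the 51 forkhead genes, 15 had a peak of the latter kind (29.4%, 18.7 to 43.0), against 32.2% of all genes. FOXK2 led with 9, before FOXN3 with 6 and FOXO3 with 5, and all of those at FOXN3 and FOXO3 lay inside the gene itself. Peaks were counted within 50 kb of any start, so starts spread over a long gene widen the window. FOXK2 has 12 annotated starts in 124.95 kb, FOXN3 19 in 494.28 kb and FOXO3 3 in 124.94 kb. FOXH1, the partner of SMAD proteins in nodal signalling, had 14 other peaks in a gene-dense stretch of chromosome 8, of which 1 lay beyond 3 kb of every start.

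Neighbouring peaks were also joined, at the stitching distance the study used for super-enhancers, and ranked by summed peak width as a substitute for a ranking by signal, which the list does not hold. Of 17049 joined regions, 879 lay past the point where the ranked curve reached a slope of 1 (above 7.97 kb). Such a region lay at 2 forkhead genes (3.92%, 1.08 to 13.2), against 7.67% of all genes. These were FOXH1 (rank 202, 12 peaks, 17220 bases), whose region is that of its neighbours, and FOXK2 (rank 738, 9 peaks, 8930 bases). FOXP1 at rank 973, FOXQ1 at 1059 and FOXN3 at 1202 fell short of the point.

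To ask whether the family's own DNA sites, or the ATF/CREB and AP1 sites examined in the study, stood at these promoters, letters were searched on both strands of the stretch from 250 bases before to 50 bases after each start in the RefSeq table. The forkhead letters TGTTTAC or TGTTTAT were present at 3 of 40 forkhead genes (7.5%), against 7.62% of 15345 genes. TGACGTCA, TGANNTCA or TGAGTCA was present at 8 of 40 (20.0%), against 17.1%, where a TGACGTCA match is also a TGANNTCA match. Both shares were near the background. The sites below are shown because they are the forkhead matches, FOXD3's ATF/CREB match, and the TGACGTCA matches inside promoter peaks, each with 10 flanking bases and the match in capitals.
FOXO3, chr6:108560673-108560699, plus strand: cgagcgaaacATAAACAaacgcacgca
FOXO4, chrX:71095864-71095890, plus strand: ccggcgagtgGTAAACAgagacgtcag
FOXP1, chr3:71245254-71245280, minus strand: actatgttatTGTTTACtttaccatac
FOXD3, chr1:63322485-63322512, plus strand: gccgcggcccTGACGTCAcgcacggtca
FOXP1, chr3:71584094-71584121, minus strand: caggtggatgTGACGTCAgggacgcaca
FOXP2, chr7:114085887-114085914, plus strand: caggtggaccTGACGTCAgccaggaggc
The FOXO3 and FOXO4 forkhead matches lay inside the promoter peak, 234 bases before and 23 bases after the start, and the FOXP1 match, 193 bases before an internal start, lay outside any peak. The FOXD3 match lay 72 bases before the start, where no peak was called. The FOXP1 and FOXP2 ATF/CREB matches, 133 and 430 bases before the nearest start of their gene and both inside a peak, were identical at 19 of 28 positions, the 8 of the match included. Over the whole width of the 39 forkhead promoter peaks, forkhead letters occurred 27 times in 82.0 kb (0.329 per kb), against 0.199 per kb in 15916 promoter peaks of all genes. They were present in 43.6% of the peaks, against 23.3%, beside median widths of 2010 and 1320 bases, and 12 of the 27 lay in the 6 FOXP1 peaks, 5 of them in the 5840-base peak. Without FOXP1 the value was 15 in 64.8 kb (0.231 per kb), beside 0.245 per kb over all peaks of the list. Median GC content was 42.9% in the FOXP1 promoter peaks and 63.4% in those of the other forkhead genes. It was 59.1% in promoter peaks of all genes and 53.6% in all peaks. The part of GC content in these densities was not tested. TGACGTCA occurred at 0.0244 per kb in forkhead promoter peaks, against 0.0249, TGANNTCA at 0.317 against 0.36 and TGAGTCA at 0.061 against 0.123. The TGACGTCA and TGAGTCA values rest on 2 and 5 matches.

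The genes that act with the family were counted in 4 lists of textbook members, 102 genes in all with SKP2 in both the FOXO regulator and the FOXM1 target list, beside the background of 63.4%. All 29 regulators of FOXO factors, among them the AKT kinases, insulin receptor substrates and 14-3-3 proteins that hold FOXO in the cytoplasm, carried a promoter peak (interval 88.3 to 100). The widest summed widths were at SGK1 (14660 bases), IGF1R (12430) and IRS2 (11880). Of 25 FOXO target genes, 22 had one (88.0%, 70.0 to 95.8), the widest at MXI1 (8910), BCL6 (8110) and KLF6 (6520). Those without were TRIM63, the muscle atrophy ligase, G6PC1, the liver glucose-6-phosphatase, and FASLG, the T-cell death ligand.

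All 24 FOXM1 target genes, many of which serve mitosis, had a promoter peak (86.2 to 100), the widest at CDC25B (18530 bases), CKS1B (7170) and CENPA (2880). All 25 protein partners of forkhead factors had one (86.7 to 100), among them CTBP2 (7330 bases) and SIN3A (6460). The median summed width was 2600 bases for the FOXO regulators, 3580 for the FOXO targets with a peak, 1380 for the FOXM1 targets and 2510 for the partners, against 1760 for all genes with a promoter peak. The interval of each list began above the 63.4% of all genes. The lists were chosen with earlier results of these data known, so these intervals only describe the counts. Among all genes with a CpG-rich start the share was 82.8%. This value lay inside the interval of the FOXO targets (70.0 to 95.8) and below those of the other lists, whose CpG content was not examined. With only the widest 50% of peaks, where all genes stood at 49.0%, the FOXO targets fell to 17 of 25 (68.0%, 48.4 to 82.8) and the FOXM1 targets to 16 of 24 (66.7%, 46.7 to 82.0), and these intervals contained the background. The partners fell to 21 of 25 (84.0%, 65.3 to 93.6) and the FOXO regulators stayed at 29 of 29, both with intervals above it. With the canonical start only, the partners fell to 22 of 25 and the FOXM1 targets to 23 of 24, and the other lists did not change. Many of these genes are active in most dividing cells, and no other cell type was measured here.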

How the data were processed

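Chromatin of SU-CCS-1 cells was measured by H3K27ac ChIP-seq. Reads were mapped by the authors to hg38 with BWA-MEM, freed of duplicates with samtools and used to call broad peaks with MACS2 against input, and peaks in denylisted regions were removed (BWA 0.7.10-r789 and MACS2 2.2.6 in the submitters' processing notes). The authors deposited 1 merged peak list that gives the start and end of each peak in bases, with no score, count or sample column. Whether reads or peaks were merged is not stated in the sources used here. Broad calling joins neighbouring stretches, so width reflects signal height and joining too.

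Start sites, coding exons and the canonical transcript came from GENCODE 44, with genes shared by X and Y counted on X. Coordinates are counted from 1. Shares with Wilson intervals, medians, motif counts and coding identities were computed in Python 3.11.15 (numpy 2.4.6, scipy 1.17.1, Biopython 1.88, matplotlib 3.10.9), and the overlap and counting steps were tested on simulated data. The members, gene lists and alternatives were chosen with earlier results of these data known. Any forkhead gene could be named, as could list genes without a promoter peak or with the 3 largest summed widths, neighbours whose start lay in a counted peak, and the cell type markers. Genes at a nearest peak beyond 50 kb were named after its position was seen. Some items are counted but not reported by name here. Alternatives changed the promoter window, the start sites used, the peaks kept, the outer distance, the joining distance and the motif window. A start site inside the peak, a CpG ratio of at least 0.75 and motif density without FOXP1 were added after seeing the data.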

Additional observations from a re-analysis of the deposited data

How the results depend on the processing

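The list holds no value per replicate, so replicates could not be left out in turn. No paired analysis was possible because peaks carry no replicate label. Of 66 alternative values for 17 results, 59 stayed within 1.5 times the main value and 7 moved. This factor compares the values alone, not their place against the background. With the widest 50% of peaks the counts of forkhead genes, FOXO targets and FOXM1 targets stayed within it, although their intervals then contained the background. The 59 include keeping FOXL2NB and leaving out FOXD4 and its copies. None of these genes had a promoter peak, so the count of genes with one could not change, although the share did, as given above. The number of forkhead genes with another peak within 50 kb fell from 31 to 15 when only peaks beyond 3 kb of every start site were kept. The median number of such peaks, 1, became 0 within 25 kb, 2 within 100 kb, 0 with only peaks beyond 3 kb of every start and 0 with the widest 50% of peaks. The genes at a top-ranked joined region, 2, became 1 with joining within 5 kb and 0 without the peaks wholly within 2.5 kb of a start. The forkhead genes with a promoter peak numbered 20 to 26 over all settings: a 5 kb window gained FOXD3 and FOXP3, a 1 kb window lost FOXH1, the canonical start alone lost FOXP2, the widest 50% of peaks lost FOXA3, FOXI3, FOXO4 and FOXO6, and a start inside the peak lost FOXA3, FOXH1 and FOXO6.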
